A study of Mus musculus with 35 samples.

Results

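A set of 8 imprinted genes of growth control was examined across the reprogramming of mouse fibroblasts to pluripotency: Igf2, Dlk1, Peg3, Mest, Peg10, Plagl1, Cdkn1c and Grb10. They were taken by name from a list, and each was studied over its body and 50 kb to each side, so they are 8 of 21631 protein-coding genes on chromosomes 1 to 19 and X. Their windows held 78 of 106528 H3K27ac regions and 25 of 37138 KLF4 regions. H3K27ac, acetylation of lysine 27 of histone H3, marks active promoters and enhancers. KLF4 is a zinc finger transcription factor and one of the proteins that drive the reprogramming.

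The libraries were chromatin immunoprecipitations with sequencing (ChIP-seq), 12 for H3K27ac and 10 for KLF4, each given as a list of peaks. Embryonic fibroblasts (MEF) came from C57BL/6 x 129 mice that carry a doxycycline-driven Oct4, Klf4, Sox2 and Myc cassette (OKSM) in Col1a1 and the M2rtTA transactivator in Rosa26, and the MEF libraries were made without doxycycline. Cells at day 3, day 6 and day 9 were of the same genotype and had received doxycycline at 1 µg/ml with ascorbic acid at 50 µg/ml. Day 3 was the bulk culture, whereas day 6 and day 9 were sorted for SSEA1, a surface antigen of cells on the way to pluripotency. The embryonic stem cells (ESC) were line V6.5, grown on irradiated feeder cells in serum with LIF, and a further KLF4 group (ESC 2i) also received a MEK inhibitor at 1 µM and a GSK3 inhibitor at 3 µM. H3K27ac had 2 MEF, 3 day 3, 3 day 6, 2 day 9 and 2 ESC libraries, and KLF4 had 2 libraries in each of its 5 groups. The design text calls the replicates biological, but no label ties them to separate animals or cultures, so p-values measure the spread between these libraries, which may be technical.

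Genomic imprinting silences a single parental copy of a gene, so that only the copy from the father or only that from the mother is expressed. Igf2, Dlk1, Peg3, Mest, Peg10 and Plagl1 are expressed from the paternal copy, and Igf2 and Dlk1 are known as promoters of fetal growth. Cdkn1c and, outside the brain, the main form of Grb10 are expressed from the maternal copy and restrain growth. Peak lists do not separate the parental copies, so each value below is for both copies together.

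Peak lists differed in length. H3K27ac lists ran from 17493 peaks and 9.21 Mb at day 6 to 88347 peaks and 83.5 Mb in MEF, and KLF4 lists from 21129 to 34640 peaks and from 4.45 to 15.2 Mb. Of 8 fibroblast markers, 8 had an H3K27ac peak in each MEF library, 6 on day 3, 2 or 3 on day 6, and 3 or 4 in the day 9 and ESC libraries. Of 8 pluripotency markers, 3 had a peak in each MEF library, 1 or 2 on day 3, 1 on day 6, 7 on day 9 and 8 in ESC. Summed H3K27ac length at the fibroblast markers was 91.9 to 92.8 kb in MEF, 14.7 to 23.7 kb on day 3, 0.567 to 3.47 kb on day 6, 6.22 to 6.60 kb on day 9 and 1.17 to 2.61 kb in ESC. The part of fibroblasts in the values below, or of the sort for SSEA1 at day 6 and day 9, was not tested. Each library pools many cells, so fewer cells of a type and less signal per cell cannot be told apart. For each gene the covered length in its window was also divided by that of the whole list, since lists differ in length. This share is given in bp per Mb, and it can rise where the covered length itself falls.

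The H3K27ac share differed between the 5 stages for 6 of the 8 genes (exact permutation test of the between-stage F, two-sided, Benjamini-Hochberg adjusted p at most 0.05 over 19778 genes). The same call was made for 78.8% of all genes tested, so the count is not a result about imprinted growth genes. Peg3, Cdkn1c and Grb10 had a higher mean share in ESC than in MEF, a direction called for 44.2% of genes. Igf2, Dlk1 and Mest had a lower one, as called for 34.4%. The size depended on the window: with flanks of 10 kb the ESC minus MEF share was 8.65 instead of 203 at Grb10, 1.18 instead of 44.0 at Peg3, 11.3 instead of 18.7 at Cdkn1c and -47.5 instead of -104 at Mest, and it was positive at Igf2 and Dlk1. Peg10 and Plagl1 were not called. Genes thus went both ways, and they did so among the paternally expressed members as well. MEF and ESC libraries were of 1 batch (DG-3458). At the 6 called genes the step from day 3 to day 6 had the same direction in both batches that hold these stages. Both day 9 libraries were of batch EA-3702, which also holds 1 day 3 and 1 day 6 library and none of MEF or ESC, so that day 9 against those cannot be told apart from batch.

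**Figure D1:**
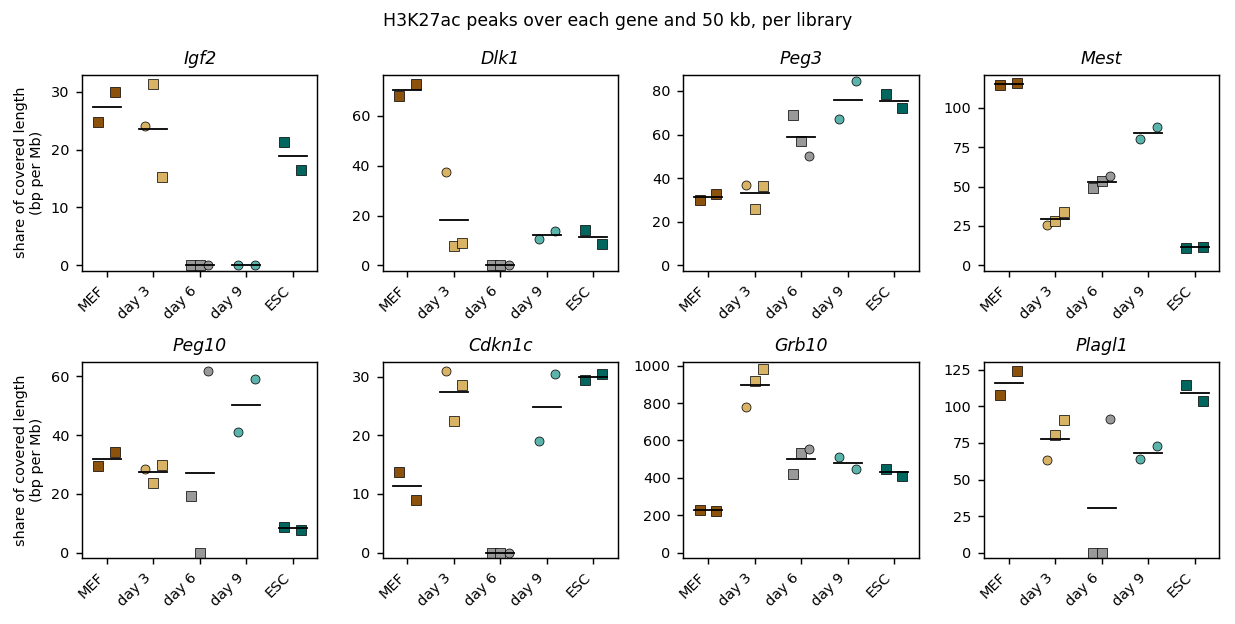
H3K27ac share of covered length (bp per Mb, vertical axis) in the window of each gene, by stage. Each point is 1 library (squares, batches whose label starts with DG; circles, with EA), and the line is the stage mean. Igf2, Dlk1 and Cdkn1c are at 0 in all 3 day 6 libraries, as were 24.7% of all genes, and Grb10 is highest at day 3.

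The promoters below are shown because their start regions were marked differently: Grb10 and Plagl1 by both H3K27ac and KLF4, Peg3 by H3K27ac without a KLF4 peak on the start, and Mest by H3K27ac in both day 9 libraries and KLF4 in 1 day 3 and 1 ESC library. Sequences are from RefSeq (GRCm38.p6), 250 bases before the start, 5′ to 3′ on the strand of the gene, and 6 of the 8 genes matched the promoter table. Capitals mark matches, on either strand, to GGGNGTGG (the KLF letters) or TGCCGC (the hexamer of ZFP57, a protein that keeps imprints). Among 21045 promoters of the same length, 17.83% held the KLF letters and 10.33% those of ZFP57. Another pattern, CCATNTT (YY1), in 11.18% of promoters, was found in none of the 4.
Grb10 (chr11:12037421-12037670, minus strand): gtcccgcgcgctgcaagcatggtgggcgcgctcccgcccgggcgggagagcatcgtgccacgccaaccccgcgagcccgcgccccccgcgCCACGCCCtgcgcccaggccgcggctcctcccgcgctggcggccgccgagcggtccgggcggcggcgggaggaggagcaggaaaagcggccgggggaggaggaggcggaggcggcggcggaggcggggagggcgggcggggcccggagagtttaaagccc
Plagl1 (chr10:13090582-13090831, plus strand): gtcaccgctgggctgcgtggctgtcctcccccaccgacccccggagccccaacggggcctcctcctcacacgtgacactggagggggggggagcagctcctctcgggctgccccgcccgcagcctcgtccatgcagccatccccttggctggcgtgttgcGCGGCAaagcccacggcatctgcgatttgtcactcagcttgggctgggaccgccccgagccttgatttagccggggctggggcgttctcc
Peg3 (chr7:6730420-6730669, minus strand): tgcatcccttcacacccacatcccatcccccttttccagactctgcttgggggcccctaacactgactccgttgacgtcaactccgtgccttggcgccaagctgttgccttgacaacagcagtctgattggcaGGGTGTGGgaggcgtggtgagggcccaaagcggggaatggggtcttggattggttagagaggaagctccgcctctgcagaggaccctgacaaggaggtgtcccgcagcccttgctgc
Mest (chr6:30737800-30738049, plus strand): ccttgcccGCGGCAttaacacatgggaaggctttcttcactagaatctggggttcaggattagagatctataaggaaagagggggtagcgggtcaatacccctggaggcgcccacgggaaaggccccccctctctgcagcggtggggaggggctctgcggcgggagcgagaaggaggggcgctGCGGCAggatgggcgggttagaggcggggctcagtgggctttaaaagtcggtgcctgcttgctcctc
Grb10 had 1 KLF match, at position -160, and Peg3 had 1, at -117, though only the Grb10 start had KLF4 peaks. Plagl1 had 1 ZFP57 match at -90 and Mest had 2, at -242 and -67. GC content was 81.2% at Grb10, 70.4% at Plagl1, 62.4% at Mest and 60.4% at Peg3, against a median of 55.6% over all promoters. A match describes letters and is not a binding site.

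Over the 300 bases about the start, H3K27ac peaks were found at Grb10 in 2 MEF, 3 day 3, 2 day 6, 2 day 9 and 2 ESC libraries, and KLF4 peaks in 2, 2, 2, 2 and 1 libraries of day 3, day 6, day 9, ESC and ESC 2i. At Peg3 only the 2 MEF libraries and 1 day 9 library had H3K27ac there. The annotated Dlk1 start and all 4 annotated Igf2 starts had no H3K27ac peak in these 300 bases in any library.

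Igf2 encodes the fetal insulin-like growth factor. Its window (gene at chr7:142650768-142666816, GRCm38) had H3K27ac peaks over 2.04 and 2.51 kb in the MEF libraries, 0.924, 0.959 and 0.362 kb in those of day 3, and 1.42 and 1.03 kb in those of ESC, and no peak in any day 6 or day 9 library. Every library before day 6 and every ESC library thus had a peak, and none in between did. Of all genes, 24.7% had no peak in any day 6 library, the stage with the shortest lists, and 15.3% none in either day 9 library. The share was 27.4 ± 3.75 in MEF and 18.97 ± 3.41 in ESC (SD, n = 2 each), and it differed between stages (exact permutation test, F = 18.4, adjusted p = 0.00686). With flanks of 10 kb the ESC minus MEF share was positive (7.37), and at a deposited q-value of at most 0.01 the call was lost (exact permutation test, adjusted p = 0.0502) while the difference was -26.2 instead of -8.38. A peak list that shows none is not a region without signal.

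The Igf2 peaks before and after day 6 lay in different places. MEF libraries had regions 39.3 kb and 44.8 kb upstream of the gene, at chr7:142706090-142707914 and chr7:142711632-142712042. Day 3 alone had chr7:142645994-142647236, in 3 of 3 libraries. The 4 ESC regions were all ESC-only, and 2 of them lay inside the gene, of which chr7:142660704-142661095 was 176 bp from an annotated start. At that place KLF4 also had a region (chr7:142660919-142661196), found in 1 day 3, 0 day 6, 1 day 9, 1 ESC and 2 ESC 2i libraries. The KLF4 region found most often, chr7:142659322-142659735, was in 1 day 3, 2 day 6, 1 day 9, 2 ESC and 0 ESC 2i libraries. A further one, chr7:142660136-142660486, was in 1 ESC and 2 ESC 2i libraries. Neither overlapped an H3K27ac region. H19, the imprinted non-coding RNA next to Igf2, had an H3K27ac peak in all MEF and day 3 libraries and in none at day 6, day 9 or ESC.

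Dlk1, a membrane ligand related to the Notch ligands and abundant in fetal tissue, had most H3K27ac in MEF. Covered length in its window (gene at chr12:109452485-109463336) was 5.61 and 6.09 kb for MEF, 1.45, 0.241 and 0.218 kb for day 3, 0 for the 3 day 6 libraries, 0.524 and 0.690 kb for day 9, then 0.947 and 0.522 kb for ESC. Both MEF libraries lay above all others. Day 3 libraries had shares of 37.6, 7.90 and 9.16, the first of them in batch EA-3702. The share was 70.4 ± 3.66 in MEF and 11.3 ± 4.18 in ESC (SD, n = 2 each; exact permutation test over stages, F = 19.1, adjusted p = 0.0169). The ESC minus MEF share was positive with flanks of 10 kb (11.3) and 100 kb (0.68), and the call was lost with 100 kb and at a deposited q-value of at most 0.01 (exact permutation tests, adjusted p = 0.209 and 0.0556).

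All 8 MEF-only regions of the Dlk1 window lay before the gene, from 49.9 to 10.9 kb from its start. The one found most often, chr12:109416539-109418967, had the authors' fold enrichments of 19.1 and 25.7 in MEF and of 2.66 to 3.25 at day 3. The ninth region, chr12:109453064-109453762, lay 241 bp from the start, inside the gene, and was found in both day 9 and both ESC libraries and nowhere else. The MEF-only regions were thus upstream, and that of day 9 and ESC was at the 5′ end of the gene. KLF4 had 1 region, 14.7 kb from the start, in the 2 ESC 2i libraries, and no KLF4 peak was listed at day 6 or day 9.

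Mest, which encodes a hydrolase-like protein of mesoderm, had the highest F of the 8 genes. Its window (gene at chr6:30733506-30748466) was covered by 9.46 and 9.69 kb of H3K27ac peaks in MEF, by 0.990, 0.858 and 0.807 kb on day 3, by 0.514, 0.493 and 1.13 kb on day 6, by 3.93 and 4.34 kb on day 9, and by 0.729 and 0.737 kb in ESC. Day 9 lay between MEF and all other stages, with no overlap. The share was 115 ± 1.16 for MEF, 84.0 ± 5.08 on day 9 and 11.4 ± 0.591 in ESC (SD, n = 2 each). Within batch EA-3702 it was 25.8 on day 3, 56.6 on day 6, and 80.4 and 87.6 on day 9. The exact permutation test over stages gave F = 278 and p = 7.22e-06, the smallest the 138600 distinct labelings can give, with an adjusted p of 0.000489.

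The region over the Mest start annotated at position 30738050, chr6:30738034-30740273, followed this course. It was found in 2 MEF, 0 day 3, 1 day 6, 2 day 9 and 0 ESC libraries, with folds of 5.46 and 4.99 in MEF and of 5.92 and 7.30 at day 9. Over the 250 bases before that start and the 50 after it, only the 2 day 9 libraries had a peak. The largest MEF-only region of the window, chr6:30733987-30737102 (3116 bp), also lay inside Mest, 481 bp from its first annotated start, with folds of up to 8.87 and 7.43 in the 2 MEF libraries. Another, chr6:30686002-30688512 over the neighbour Cep41, was likewise found in MEF alone. The values of the ESC and day 3 libraries and of day 6 replicates 1 and 2 each came wholly from 1 peak, in chr6:30692653-30694635. This region lies over the Cep41 start, outside Mest, and was found in all 12 libraries. KLF4 had 1 region in the window, chr6:30738178-30738476, 125 bp from a Mest start, in 2 day 3 and 1 ESC libraries. Of the 10 KLF4 peaks in the window, 7 lay outside every region.

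**Figure D2:**
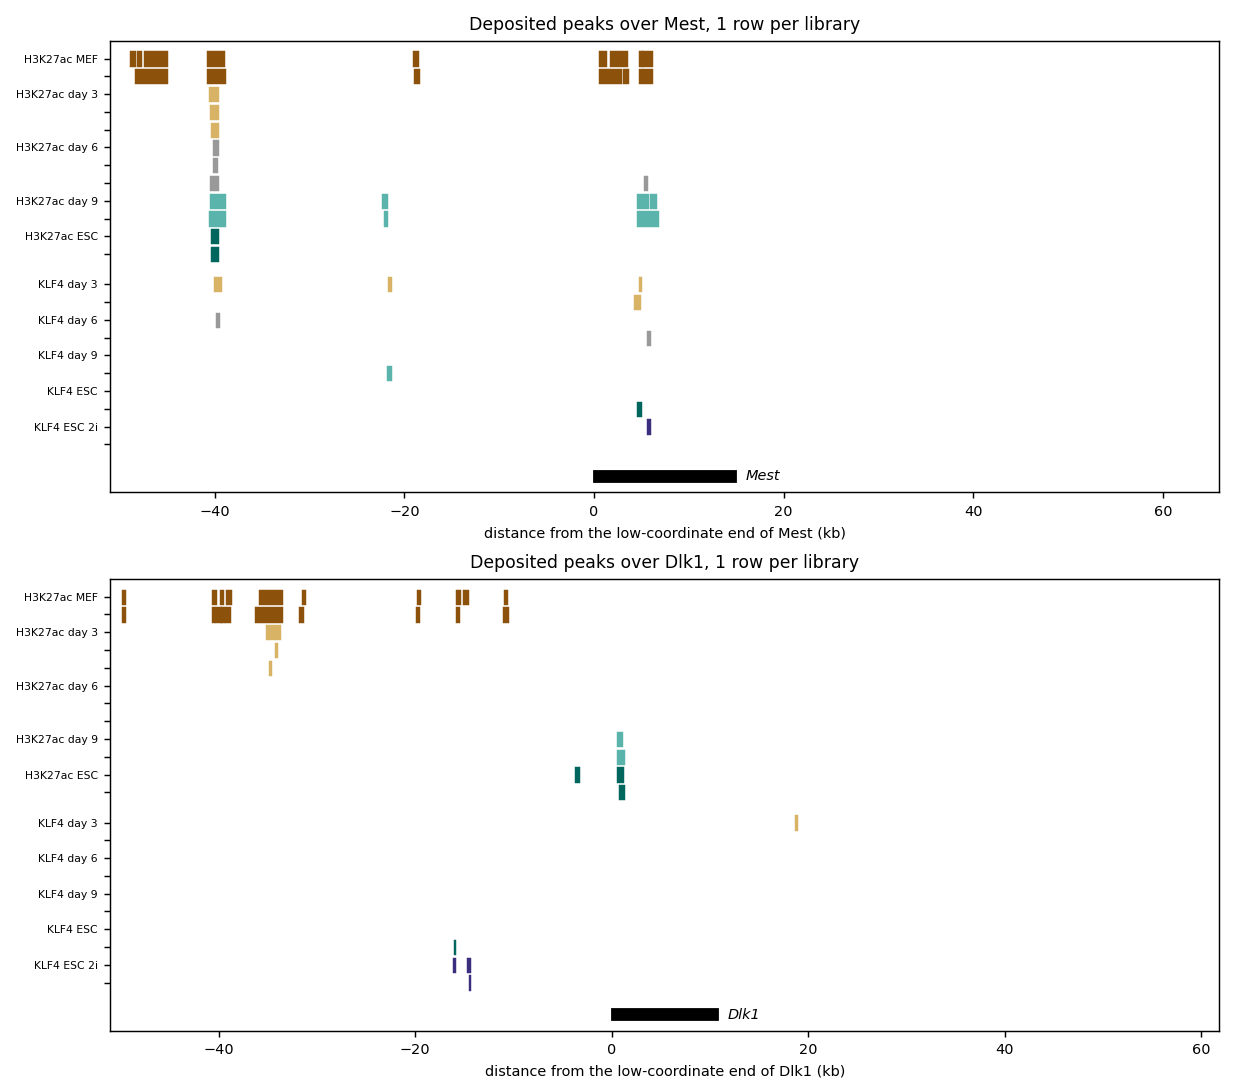
Deposited peaks in the windows of Mest (top) and Dlk1 (bottom), 1 row per library and 1 colour per stage, along the distance in kb from the end of the gene with the lower coordinate (black bar, the gene). Around Mest the peaks over the gene are present in MEF and missing at day 3, and day 9 has peaks at an annotated start inside the gene, while at Dlk1 the upstream MEF peaks give way to 1 peak near the start at day 9 and in ESC.

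Peg3, a zinc finger protein with growth effects in fetal and maternal tissue, shares its start with Usp29. H3K27ac covered 2.48 and 2.74 kb of its window (gene at chr7:6703892-6730462) in MEF libraries, then 1.41, 0.788 and 0.870 kb on day 3, 0.725, 0.526 and 0.997 kb on day 6, 3.29 and 4.19 kb on day 9, and 5.21 and 4.50 kb in ESC. In length, every day 3 and day 6 library lay below both of MEF, and every day 9 and ESC library above them. In the share, the 3 day 6 libraries (68.9, 57.1 and 50.0) and 2 of 3 day 3 libraries lay above both of MEF as well. The share was 31.4 ± 2.01 in MEF and 75.4 ± 4.40 in ESC (SD, n = 2 each), and the stages differed (exact permutation test, F = 17.4, adjusted p = 0.00567). When lists were cut to equal numbers of their top peaks, this call was lost (exact permutation test, adjusted p = 0.431).

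Peg3 had one H3K27ac region in all 12 libraries, chr7:6728810-6730542 at its 5′ end, with folds from 4.49 at day 6 to 20.5 in ESC. A neighbouring region inside the gene, chr7:6727470-6728595, was found in 11 libraries. KLF4 lay over the same stretch: chr7:6728264-6729178 and chr7:6727796-6728193 were each found in 1 day 3, 2 day 6, 2 day 9, 2 ESC and 1 ESC 2i libraries. Of its 4 ESC-only regions, 3 lay over Usp29, 29.1 to 40.3 kb from the Peg3 start, each overlapping a KLF4 region.

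Peg10 derives from a retrotransposon and is required for the placenta. Its window (gene at chr6:4747306-4760517) had 2.44 and 2.86 kb of H3K27ac peaks in MEF libraries, then 1.09, 0.722 and 0.710 kb on day 3, 0.204, 0 and 1.23 kb on day 6, 2.01 and 2.93 kb on day 9, and 0.581 and 0.481 kb in ESC. ESC lay below MEF, day 3 and day 9 in length. In the share the day 6 libraries were the most spread, at 19.4, 0 and 61.8. The share was not called (exact permutation test, F = 1.42, adjusted p = 0.319). Without day 6 replicate 3 it was (exact permutation test, adjusted p = 0.00617). With flanks of 100 kb it was called too (exact permutation test, adjusted p = 0.0330), and the ESC minus MEF share was 96.1 instead of -23.6.

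KLF4 had its most strongly enriched place of the Peg10 window in the neighbour Sgce, at chr6:4739611-4740335. It was found in all 8 libraries of day 3, day 6, day 9 and ESC and in neither ESC 2i library, with folds of 29.5 and 6.42 on day 3, 9.25 and 8.36 on day 6, 5.61 and 6.96 on day 9, then 3.19 and 2.65 in ESC. The H3K27ac region over it, chr6:4738845-4741079, was found in 2 MEF, 2 day 3, 1 day 6, 2 day 9 and 0 ESC libraries. At the Peg10 end nearest Sgce, KLF4 had a region in 1 day 3 and 2 ESC 2i libraries (chr6:4746687-4747336).

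Plagl1, a zinc finger protein that slows the cell cycle, starts together with the non-coding RNA Hymai. H3K27ac covered 8.92 and 10.4 kb of its window (gene at chr10:13090832-13131694) in MEF libraries, then 2.43, 2.45 and 2.15 kb on day 3, 0, 0 and 1.82 kb on day 6, 3.14 and 3.604 kb on day 9, and 7.60 and 6.45 kb in ESC. The share was 116 ± 11.7 in MEF and 109 ± 7.80 in ESC (SD, n = 2 each), and the stages were not called (exact permutation test, F = 3.35, adjusted p = 0.0880). Without day 6 replicate 3 they were (exact permutation test, adjusted p = 0.00474). The ESC minus MEF share, -6.86, was positive with equal numbers of top peaks (58.8) and with flanks of 10 kb (28.6) and 100 kb (19.1).

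The Plagl1 window held regions of one end stage and regions of both. The 3 MEF-only regions lay beyond the gene over Zc2hc1b, and 3 of the 4 ESC-only regions lay inside Plagl1. Shared between them were the start region chr10:13089981-13094585 and the intragenic chr10:13106061-13110148, each found in 10 libraries. In the latter the fold was 6.69 and 9.28 in MEF and 18.99 and 15.7 in ESC. KLF4 was found at the start (chr10:13090464-13091234) in 2 day 3, 1 day 6, 0 day 9, 2 ESC and 2 ESC 2i libraries.

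Cdkn1c encodes p57, an inhibitor of cyclin-dependent kinases. Its window (gene at chr7:143458339-143461059) had 1.13 and 0.746 kb of H3K27ac peaks in MEF libraries, then 1.19, 0.687 and 0.678 kb on day 3, 0 in the 3 day 6 libraries, 0.934 and 1.51 kb on day 9, and 1.95 and 1.90 kb in ESC. In length both ESC libraries were above all others, and in the share they overlapped day 3 and day 9. This share was 11.3 ± 3.36 in MEF and 30.0 ± 0.704 in ESC (SD, n = 2 each), and the stages differed (exact permutation test, F = 25.9, adjusted p = 0.00412). This call was lost with flanks of 100 kb and at a deposited q-value of at most 0.01 (exact permutation tests, adjusted p = 0.296 and 0.0556). Of the 4 regions present in ESC, 2 lay in Cdkn1c and 2 at Phlda2, an imprinted gene that limits placental growth, 40.6 and 41.7 kb away.

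KLF4 had a peak at the gene itself in every library. The region chr7:143460704-143461519, over the high-coordinate end of Cdkn1c, was found in all 10 KLF4 libraries, with folds from 3.68 to 18.8, and 11.3% of KLF4 regions of the genome were found as often. Another, chr7:143437619-143438541, was missing from 1 day 9 library only. KLF4 peaks covered 1.96 and 1.30 kb on day 3, 1.06 and 0.794 kb on day 6, 0.743 and 1.11 kb on day 9, then 1.81 and 2.69 kb in ESC, and 1.73 and 2.74 kb in ESC 2i. The KLF4 share was 144 ± 21.5 at day 3 and 353 ± 74.4 in ESC (SD, n = 2 each; exact permutation test over stages, unadjusted p = 0.0201, adjusted p = 0.142). ESC libraries (406 and 301) overlapped those of ESC 2i (209 and 316). Both ESC libraries were of batches with no other stage (EA-2697 and EA-2643), so ESC against day 3 cannot be told apart from batch. With flanks of 10 kb the ESC minus day 3 share was 74.3 instead of 209.

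Grb10 encodes an adaptor that binds the insulin and IGF1 receptors and dampens their signal. It had by far the most H3K27ac of the 8 windows (gene at chr11:11930499-12037428): 19.1 and 18.8 kb in MEF libraries, then 30.0, 28.1 and 23.4 kb on day 3, 4.43, 4.91 and 11.01 kb on day 6, 25.0 and 22.3 kb on day 9, and 29.8 and 25.7 kb in ESC. The window is also the longest, at 207 kb against 103 to 141 kb. In length only day 6 lay below MEF, whereas in the share its 3 libraries (420, 533 and 553) lay above both MEF libraries (230 and 225). The share was 228 ± 3.72 in MEF (SD, n = 2) against 895 ± 104 on day 3 (SD, n = 3), with ESC at 431 ± 25.9 (SD, n = 2), and the day 3 mean was above that of 99.7% of genes, a rank not scaled for window length. In H3K27ac regions per 100 kb, Grb10 stood at the 88.1 percentile of all windows. Stages differed (exact permutation test, F = 31.2, adjusted p = 0.00180).

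Day 3 was higher than day 6 in both batches that hold these stages, with mean shares of 952 and 477 in batch DG-3458 and of 781 and 553 in batch EA-3702. Of 27 H3K27ac regions in the window, 15 were present at day 3, 11 in MEF and 14 in ESC. In all, 4 were present at day 3 with no library of another stage, all inside the gene, as chr11:11957671-11958403 with 3 of 3 libraries. In all 12 libraries 3 regions were found: chr11:12033617-12039652 at the start, chr11:11946179-11956330 within the gene, and chr11:11877252-11885100 over the neighbour Ddc. At the start the fold was 22.4 and 23.0 in MEF and 7.03 and 7.75 in ESC, and over Ddc it ran the other way, 7.08 and 5.63 in MEF and 24.8 and 21.2 in ESC.

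Each of these 3 places also held a KLF4 region. The one at the start, chr11:12036987-12037864, was found in all 10 KLF4 libraries, and those over Ddc (chr11:11881297-11882506) and within the gene (chr11:11948742-11949503) in all but the first ESC 2i library. The intragenic KLF4 folds were 14.6 and 7.72 on day 3, 12.5 and 4.33 on day 6, 21.6 and 23.8 on day 9, then 3.44 and 2.86 in ESC, and 2.78 in the second ESC 2i library. KLF4 covered 5.54 and 2.68 kb of the window on day 3, 2.02 and 1.67 kb on day 6, 1.85 and 1.88 kb on day 9, then 1.01 and 1.42 kb in ESC, and 0.789 and 1.04 kb in ESC 2i. Both day 3 libraries were above all others, and the share was 347 ± 26.0 there, 192 ± 47.7 in ESC and 108 ± 17.1 in ESC 2i (SD, n = 2 each; exact permutation test over stages, unadjusted p = 0.0116, adjusted p = 0.131). With flanks of 10 kb the ESC minus day 3 share was -101 instead of -154, and at a deposited q-value of at most 0.01 it was -235. Here too the ESC libraries were of batches with no other stage, so this difference cannot be told apart from batch.

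For KLF4, none of the 18861 genes tested passed at an adjusted p of 0.05, a background of 0%, and 25.9% had an unadjusted p of at most 0.05. Among the members Grb10 and Cdkn1c did, and the other 6 had adjusted p-values from 0.255 at Plagl1 to 0.936 at Igf2 (exact permutation test over all labelings, smallest possible p = 0.00106). With labels permuted within batches, the unadjusted p was 0.0333 at Grb10 and 0.0667 at Cdkn1c (exact permutation tests). Both ESC libraries and ESC 2i replicate 2 were alone in their batches, so their labels stayed fixed. This permutation thus cannot address ESC against the other stages, which for every gene cannot be told apart from batch. Grb10 had its lowest share in ESC 2i and its highest at day 3, whereas Cdkn1c had its highest mean share in ESC and its longest KLF4 cover in an ESC 2i library. In several of the remaining members, libraries of a stage lay far apart. Igf2 had KLF4 peaks over 1.81 and 0 kb on day 3, 0.610 and 0.188 kb on day 6, 0 and 0.686 kb on day 9, then 0.145 and 1.42 kb in ESC and 0.500 and 0.786 kb with 2i. Its stages overlapped throughout.

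Peg3 had 2.27 and 0.173 kb of KLF4 peaks on day 3, 1.63 and 1.47 kb on day 6, 1.19 and 2.57 kb on day 9, then 0.649 and 1.21 kb in ESC and 1.92 and 0.497 kb with 2i, and was one of the 4 members with a peak in all 10 libraries, beside Peg10, Cdkn1c and Grb10. Peg10 had 1.95 and 0.724 kb on day 3, 0.746 and 0.366 kb on day 6, 0.723 and 0.673 kb on day 9, then 0.273 and 0.475 kb in ESC and 0.651 and 0.236 kb with 2i. Its first day 3 library stood above all others.

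At Mest the KLF4 length was 1.23 and 0.506 kb on day 3, 0.228 and 0.223 kb on day 6, 0 and 0.351 kb on day 9, then 0 and 0.397 kb in ESC and 0.244 and 0 kb with 2i. Plagl1 had 1.22 and 1.28 kb on day 3, 0 and 0.376 kb on day 6, 0.343 and 0.227 kb on day 9, then 0.466 and 0.670 kb in ESC and 0.364 and 0.511 kb with 2i. In length the 2 day 3 libraries lay above all others at both genes, but in the share 1 of those at Plagl1 (80.4) lay below an ESC library (105). Neither gene was called. Dlk1 had KLF4 peaks in 4 of 10 libraries, at most 0.458 kb in one of them.

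**Figure D3:**
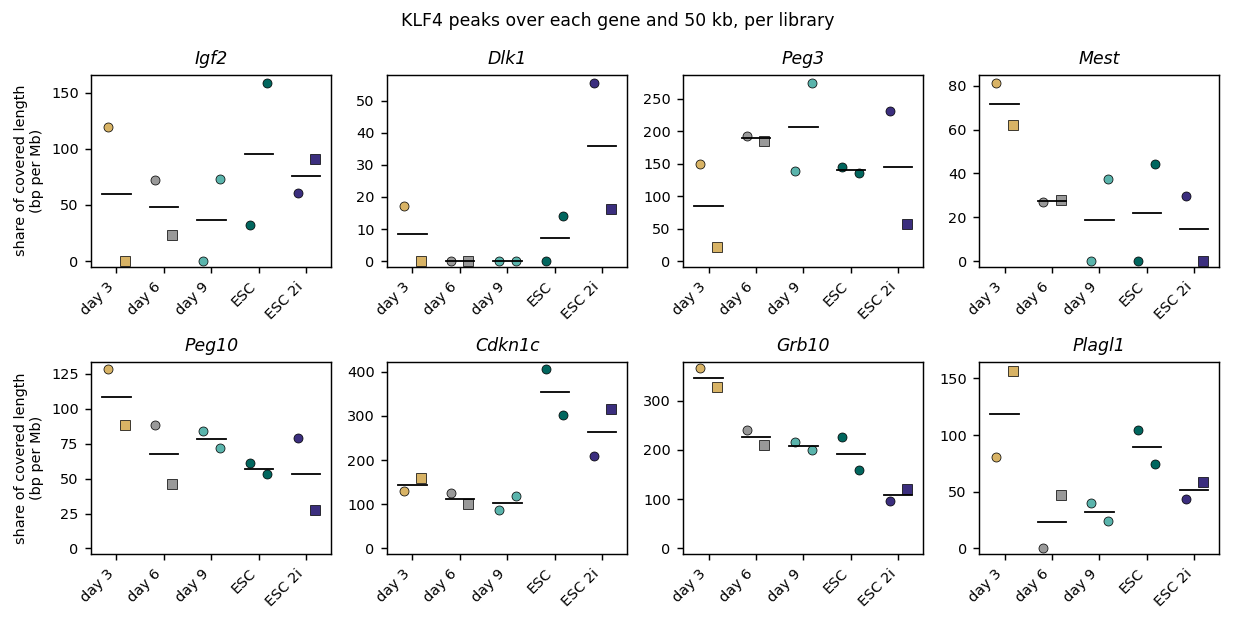
KLF4 share of covered length (bp per Mb, vertical axis) in the window of each gene, by stage. Each point is 1 library (squares, batches whose label starts with DG; circles, with EA), and the line is the stage mean. Grb10 is highest at day 3 and lowest in ESC 2i, the Cdkn1c mean is highest in ESC, whose libraries overlap those of ESC 2i, and the day 3 libraries of Igf2 and Peg3 lie far apart.

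By class, 29 of the 78 H3K27ac regions were MEF-only, 25 ESC-only, 11 shared, 9 in neither and 4 undecided. In the genome 39.4% of regions were MEF-only, 29.6% ESC-only, 14.9% shared and 10.2% in neither, and the members' counts were near these shares. Regions present numbered 41 in MEF (genome, 56.5% of regions), 26 on day 3 (25.4%), 7 on day 6 (12.1%), 24 on day 9 (29.7%) and 38 in ESC (45.8%). The 5 found in all 12 libraries, 3 of them at Grb10, stand beside 7.74% of the genome's regions. All 7 regions of day 6 were in the windows of Grb10, Peg3 and Mest, that of the Mest window over the Cep41 start. Day 9 had 1 region found in no library of another stage, chr6:30711108-30711716 before Mest.

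Of the 25 KLF4 regions, 17 (68.0%) overlapped an H3K27ac region, against 77.8% in the genome, and 19 of the 78 H3K27ac regions (24.4%) overlapped a KLF4 region, against 25.6%. KLF4 regions present numbered 12 on day 3 (genome, 48.1% of regions), 9 on day 6 (40.2%), 10 on day 9 (51.5%), 13 in ESC (43.4%) and 11 in ESC 2i (40.5%). With a library left out, so that 1 library defines the stage, the count was 33 on day 3 without replicate 2, and in ESC 33 without replicate 1 and 20 without replicate 2. The 2 regions of day 3 alone were at Grb10 and Plagl1 (genome, 5.76%), and 6 were absent at day 3 and present in ESC or ESC 2i (genome, 25.2%), at Igf2, Dlk1, Peg3 and Cdkn1c. Peaks outside every region made up 71 of 217 KLF4 peaks and 46 of 504 H3K27ac peaks.

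**Figure D4:**
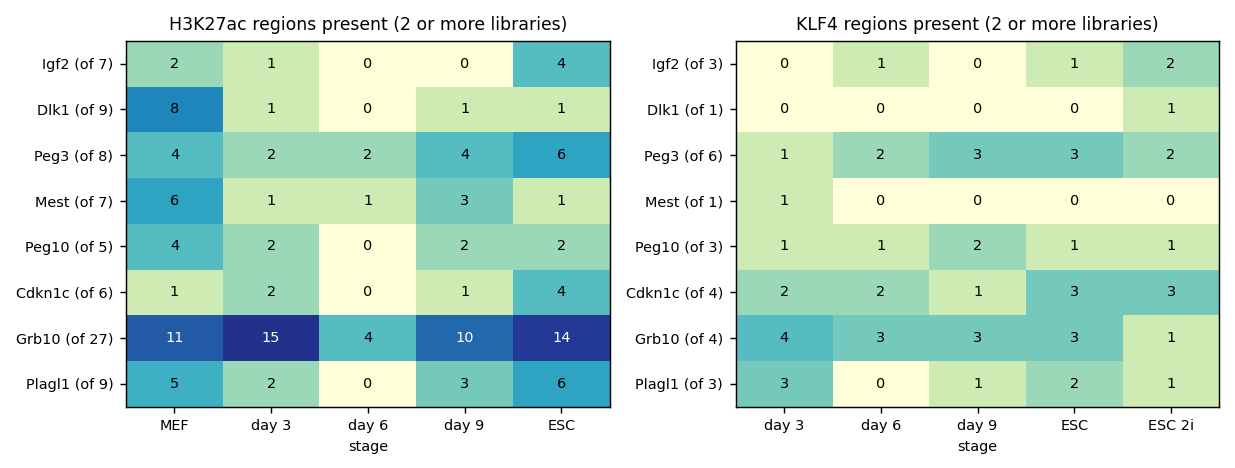
Number of H3K27ac regions (left) and KLF4 regions (right) present, that is found in 2 or more libraries, at each stage (columns) for each gene (rows, with its number of regions in all). Grb10 leads in H3K27ac at every stage, and at day 6 the other 7 genes have 0, 1 or 2 H3K27ac regions present.

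Other imprinted genes moved in both directions. Of 48 listed, 44 were in the gene table and tested for H3K27ac, and 39 were called, 26 with ESC above MEF and 13 below. Over all genes 78.8% were called, 44.2% above and 34.4% below. The median share of the list was 41.1 in MEF and 73.1 in ESC, against 78.8 and 78.9 over all genes tested. The lowest p-values were those of Ppp1r9a (64.4 ± 7.96 in MEF, 316 ± 7.21 in ESC), Usp29, Zdbf2 (30.1 ± 0.908 and 455 ± 20.6) and Sfmbt2 (11.6 ± 9.49 and 76.6 ± 6.62; SD, n = 2 each). Ppp1r9a lies near Peg10, and Usp29 shares peaks with Peg3. For KLF4, 0 of 42 were called and 10 had an unadjusted p of at most 0.05 (exact permutation tests), against 25.9% of all genes, led by Slc38a4, Nnat, Klf14 and Dcn.

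In the insulin-like growth factor pathway, into which Igf2 and Grb10 feed, all 20 listed genes were called for H3K27ac, 6 with ESC above MEF and 14 below. Over all genes 78.8% were called, with 44.2% above and 34.4% below. The median share of the list was 210 in MEF and 103 in ESC, against 78.8 and 78.9 over all genes tested. Igf1r, the receptor that carries the Igf2 signal, went from 988 ± 12.5 in MEF to 336 ± 15.1 in ESC, and Insr, the insulin receptor, from 60.1 ± 3.30 to 11.3 ± 0.690, by way of 164 ± 23.1 on day 3 (SD, n = 3). Akt1, a kinase downstream of both, was highest at day 6 (419 ± 50.1, SD, n = 3) and went from 206 ± 2.91 to 92.2 ± 5.44. Igfbp2, which binds the factors outside the cell, went from 133 ± 1.66 in MEF to 0 at day 3 and 487 ± 24.3 in ESC. For KLF4, 0 of 20 were called and 8 had an unadjusted p of at most 0.05 (exact permutation tests), against 25.9% of all genes, among them Igfbp4, Igf2bp2 and Igf2bp1.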

How the data were processed

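H3K27ac and KLF4 ChIP-seq peak lists, 22 in all, were analysed, and the 13 input libraries were not analysed here. Per the submitters' processing notes, the tools were cutadapt 1.8.1, Bowtie2 2.2.5, deepTools 2.3.6 and MACS2 2.1.1, with build mm10, and settings are not given in the sources used here. The authors deposited, for each peak, a peak score, the fold enrichment (a ratio) and the p-value and q-value as −log10, and the lists end near p 0.01. Reads were not used, so sequencing depth is unknown, and no interval was computed.

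Coordinates of genes came from a RefSeq table of GRCm38.p6. In each library the base pairs of peaks in a window were summed and divided by those of the whole list. Stages were compared per gene by a two-sided exact permutation test of the between-stage F over all distinct labelings of the libraries, for genes with a peak in at least 2 libraries, with Benjamini-Hochberg adjustment over all genes tested. Regions were merged peaks overlapped by at least 2 libraries of a stage, with an overlap of at least 1 bp. A region was present with at least 2 libraries, absent with 0, and otherwise undecided. MEF-only and ESC-only regions are present in one and absent in the other.

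All 8 genes were described. For each gene and mark the 3 regions found in the most libraries, ties by the mean rank of the score, were to be named, and of each list the 4 genes with the lowest p. The result of 1 list gene is not reported here. Further regions were named after their values were seen. The members and lists were chosen with earlier results of these data known. Code was tested on simulated data. Computation used Python 3.11.15, numpy 2.4.6, pandas 2.3.3 and numba 0.67.0, and figures matplotlib 3.10.9.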

Additional observations from a re-analysis of the deposited data

Results flagged for a closer look

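In 3 cases the step from day 3 to day 6 went opposite ways in the 2 batches that hold both stages, and the difference between batches was not tested. The H3K27ac share at Peg10 changed by -17.1 bp per Mb in batch DG-3458 (2 libraries a stage) and by 33.4 in batch EA-3702 (1 a stage). At Plagl1 the H3K27ac share changed by -85.4 in DG-3458 and by 27.9 in EA-3702. For KLF4 at Igf2 the change was 23.7 in batch DG-4040 and -46.6 in batch EA-3702, with 1 library a stage in each.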

How the results depend on the processing

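Among genes, the count called for H3K27ac (15581) ran from 13925 to 15921 when each library was left out, and the KLF4 count stayed at 0. Replicate numbers shared across MEF, day 3, day 6 and ESC in batch DG-3458 did not pair the libraries: correlations of the differences between same-numbered libraries were -0.00319 to 0.0274. Peak names inside the day 6 files of this batch carry the numbers crossed, which bears on the day 6 correlations and on the block. The replicate numbers of the labels were then used as a block in batch DG-3458 alone, which leaves out day 9. With this block 0 genes were called and 8244 had an unadjusted p of at most 0.05 (exact permutation tests). Making the same exchange of stages in both replicates leaves F unchanged, so 0.0417, the p at Mest, is the smallest possible. The adjusted p at this value was 0.0987 (exact permutation test), so the block cannot tell whether a call was lost. For KLF4 only day 9 has a number 2 in a batch, so the numbers give no pairs. With labels permuted within batches instead, 0 KLF4 genes were called and 3238 had an unadjusted p of at most 0.05 (exact permutation tests). Exchanging day 3 and day 6 in both batches that hold them leaves F unchanged. The smallest possible p is therefore above 0.00833, that of a single labeling.

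Calls of single genes also moved. Undivided covered length called Peg10 and Plagl1 (exact permutation tests, adjusted p = 0.00969 and 0.000390). At a deposited q-value of at most 0.01, Igf2, Dlk1 and Cdkn1c were not called (exact permutation tests, adjusted p = 0.0502, 0.0556 and 0.0556). The ESC minus MEF share there was larger at Igf2 (-26.2 instead of -8.38), moved by less than 1 SD at Dlk1 and was smaller at Cdkn1c (6.26 instead of 18.7). Windows of 100 kb did not call Dlk1 and Cdkn1c (adjusted p = 0.209 and 0.296, exact permutation tests) and called Peg10 (0.0330). The ESC minus MEF share turned positive at Igf2 with 10 kb (7.37) and at Dlk1 with 10 kb (11.3) and 100 kb (0.68), at Peg10 with 100 kb (96.1), and at Plagl1 with equal numbers of top peaks (58.8), 10 kb (28.6), 100 kb (19.1) and without MEF replicate 2 (1.41). With 100 kb it was 386 at Grb10, 25.2 at Peg3, 2.51 at Cdkn1c and -415 at Mest. The KLF4 ESC minus day 3 share also turned sign under some settings at Igf2, Dlk1, Peg3 and Plagl1, none of them called. Mest and Grb10 were called under every alternative run except the block, in which no gene was. There, on fewer libraries, F was 547 at Mest and 84.1 at Grb10, against 278 and 31.2 in the main run.

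Region counts depended on the lists. From any library, KLF4 had 68 regions, 44 of them overlapping H3K27ac. At q of at most 0.01 there were 14 ESC-only H3K27ac regions and 14 KLF4 regions, 6 present at day 3, 4 in ESC and 11 overlapping H3K27ac. With equal numbers of top peaks, H3K27ac had 21 regions (5 MEF-only, 5 ESC-only, 3 shared), and KLF4 had 7 in ESC and 7 overlapping H3K27ac. Windows of 10 kb held 36 H3K27ac regions (8 MEF-only, 10 ESC-only), and windows of 100 kb held 129 (51, 39 and 18 shared) and 38 KLF4 regions, 28 overlapping H3K27ac. Leaving out a library, which lets 1 library define a stage of 2, gave 77 to 93 H3K27ac regions (MEF-only 29 to 38, ESC-only 25 to 40 and shared 11 to 12) and 26 to 39 KLF4 regions, with 12 to 33 at day 3, 12 to 33 in ESC and 18 to 24 overlapping H3K27ac. The upper ends came without the second H3K27ac ESC library for ESC-only, the second KLF4 day 3 library for KLF4 regions in all and at day 3, and the first KLF4 ESC library for ESC, without which KLF4 had 38 regions. Without the second KLF4 ESC library, 20 were present in ESC. By window, leaving out a library gave 3 to 7 KLF4 regions at Igf2, 1 to 2 at Dlk1, 6 to 9 at Peg3 and 1 to 3 at Mest. It gave 3 to 4 at Peg10, 4 to 10 at Cdkn1c, 4 to 9 at Grb10 and 3 to 4 at Plagl1.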

Other observations

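Other non-coding RNAs of imprinted domains had peaks at more stages than H19 (chr7:142575530-142578146), but they are far longer genes, and no share over genes of like length was computed. Meg3 (chr12:109540996-109571729), which shares its domain with Dlk1, Kcnq1ot1 (chr7:143213111-143296547), which shares its domain with Cdkn1c, and Airn (chr17:12741311-12859884) had an H3K27ac peak over the gene or within 2.5 kb of it in all 12 libraries. KLF4 peaks were found at Meg3 in all 10 KLF4 libraries, at Airn in 1 day 6 library and in both libraries of each other stage, and at Kcnq1ot1 in 2 day 3, 0 day 6, 1 day 9, 1 ESC and 2 ESC 2i libraries. At H19 a single day 3 library had a KLF4 peak.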
